A study of Mus musculus with 12 samples.

Results

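The ADAM sheddases described here are 9 genes: Adam8, Adam9, Adam10, Adam12, Adam15, Adam17, Adam19, Adam32 and Adam33. They were taken from the probe table by an exact match of its symbol column. The match found 17 of the 46632 probes on the array, for 8 of the 9 genes, out of 34509 symbols in all. Adam19 has no probe under that symbol and was not analysed here. The 12 bead arrays, 4 for each treatment, read RNA of femoral head cartilage from TS-4/5∆cat mice aged 21 days. All 12 came from mice with in-frame deletions of the catalytic-domain exons of Adamts4 and Adamts5, so no group has wild-type cartilage. The explants were left untreated, or were given 10 ng/mL IL-1α or 10 µM retinoic acid (RA), for 3 days. Each treatment had 2 arrays in batch 1, from the Donut line, and 2 in batch 2, from the Gertrude line, so line and batch cannot be told apart. Wells held 4 hips each, and by the labels the medium held 10% serum for the 24 hours before treatment. For the 3 days of culture the methods in the paper describe serum-free medium. The methods describe unpooled RNA from 3 separate mice for each treatment, and the labels describe triplicates but give 4 arrays for each. Which arrays were separate animals is therefore not settled, and p-values measure the spread between arrays, which may be partly technical.

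ADAM proteins are membrane-anchored proteins with a disintegrin domain and, in most members, a zinc metalloproteinase domain that cuts other membrane proteins close to the cell surface. This shedding releases cytokines, growth factors and receptor ectodomains, and it also starts the cleavage that activates Notch. ADAM17, also called TACE, releases TNF and several ligands of the epidermal growth factor (EGF) receptor, and ADAM10 makes the first cut in Notch receptors and cleaves cadherins. ADAM8 is best known from neutrophils, macrophages and osteoclasts. ADAM9, ADAM12 and ADAM19 are the meltrins, ADAM15 is metargidin, which is found in chondrocytes and endothelial cells, and ADAM33 is known from airway mesenchyme. ADAM32 is in the family by sequence, is known mainly from testis, and lacks the catalytic zinc-binding motif, so it is not known as a sheddase.

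The promoter windows of Adam15, Adam17 and Adam8 are shown because these 3 genes had a probe detected on all 12 arrays and passed the test in at least 1 comparison. Each is the RefSeq sequence of GRCm38.p6 from 250 bases before to 50 bases after the annotated start, read 5′ to 3′ in the direction of transcription, with GC boxes (GGGCGG on either strand) in capitals. Adam15 lies at chr3:89349979-89350278, Adam17 at chr12:21373583-21373882 and Adam8 at chr7:139992513-139992812, all on the minus strand.
Adam15: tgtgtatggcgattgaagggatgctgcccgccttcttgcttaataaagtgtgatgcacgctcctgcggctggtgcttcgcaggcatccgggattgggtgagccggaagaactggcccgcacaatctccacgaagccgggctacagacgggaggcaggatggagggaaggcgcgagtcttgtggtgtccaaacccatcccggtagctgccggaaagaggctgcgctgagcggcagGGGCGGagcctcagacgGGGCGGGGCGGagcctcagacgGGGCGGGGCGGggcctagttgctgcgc
Adam17: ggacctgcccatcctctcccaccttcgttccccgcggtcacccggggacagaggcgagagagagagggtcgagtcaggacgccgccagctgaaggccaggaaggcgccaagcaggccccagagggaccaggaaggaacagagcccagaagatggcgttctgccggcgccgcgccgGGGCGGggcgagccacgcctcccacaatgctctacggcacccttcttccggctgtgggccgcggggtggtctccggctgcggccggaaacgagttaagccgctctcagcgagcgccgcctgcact
Adam8: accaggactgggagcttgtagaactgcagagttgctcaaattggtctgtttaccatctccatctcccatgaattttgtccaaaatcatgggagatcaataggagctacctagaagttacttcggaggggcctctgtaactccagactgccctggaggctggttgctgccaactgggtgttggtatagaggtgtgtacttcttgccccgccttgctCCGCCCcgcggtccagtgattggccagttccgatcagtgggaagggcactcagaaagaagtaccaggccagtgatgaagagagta
The Adam15 window holds 5 GC boxes, 4 of them in pairs that share 1 base, and the Adam17 and Adam8 windows hold 1 each. A GC box is in 35.7% of the 32851 promoter windows of this length. None of the 3 windows holds the AP-1 letters TGACTCA or TGAGTCA (in 5.2% of all windows) or the retinoid receptor half-site letters AGGTCA (in 16.3%), searched on both strands. The base composition differed, with 65.3% G and C in Adam15 against 52.3% in Adam8 and a median of 52.7% over all windows. These matches describe letters only and say nothing of whether a factor binds.

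Intensities below are normalized values on a log2 scale, on which a difference of 1 is a doubling, and a probe was called detected on an array when its detection p was under 0.05. The level of 1 probe is not comparable with that of another, so arrays are compared only on the same probe or the same list of probes. The summed signals of marker lists add unlogged intensities over all probes of a list, also undetected ones. Such sums follow the brightest probes. The arrays detected between 13786 and 19485 probes each, and the array with most was untreated batch 2 replicate 2. Check genes of both treatments rose. The retinoid-degrading enzyme Cyp26a1 was at least 19.2-fold higher with RA than in untreated explants, and Nos2, the inducible nitric oxide synthase, was at least 14.1-fold higher with IL-1α. These bounds set the bright group against the lowest detected signal, because neither probe was detected on any untreated array. Both probes passed the filter only through treated arrays, so no p-value is given for them. The other retinoid check genes, Cyp26b1, Rarb and Dhrs3, were also called higher with RA. Cyp26b1 was called higher with IL-1α too (0.46 to 0.72 without each array in turn). Of the other IL-1 check genes, Lcn2 was called higher with IL-1α, Saa3 was not called and Il6 did not pass the filter. The Lcn2 call held in 8 of 12 fits that left out 1 array (limma adjusted p up to 0.0835). Over all tested probes, 18.2% were called higher with RA and 15.2% with IL-1α. Cartilage markers were present, with 9 of the 10 chondrocyte markers passing the detection filter and Matn3 detected on 0 arrays.

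Of the 8 members with a probe, 5 passed the filter of detection on at least 4 of the 12 arrays, through 7 probes. These were Adam8 with 2 probes, Adam9, Adam15, Adam17 with 2 probes, and Adam32. Both Adam10 probes, ILMN_2460257 and ILMN_1241149, were detected on 0 of 12 arrays, with the first between 27.5 and 64.2 on the raw scale. The Adam33 probe was also detected on 0 arrays, at 28.4 to 54.2 raw. Array medians over all probes were 34.3 to 63.3, so these 2 genes were read at the level of a typical undetected probe. Adam12 was seen on few arrays. Its probe ILMN_1236813 was detected on 2 arrays, RA batch 1 replicate 1 and untreated batch 2 replicate 1, its probe ILMN_1243254 on 3 arrays, all of batch 2, and its probe ILMN_2671330 on 0 arrays. A signal at background does not show that the transcript was absent, since a probe can also fail for its sequence. The remaining probes of detected genes also split: 1 Adam8 probe was detected on 0 arrays, and 3 further Adam15 probes on 2, 0 and 0 arrays. Among the other ADAM genes on the array, 3 of 20 had a probe that passed the filter, Adam23, Adam30 and Adam39, and none of these 3 was called in any of the 3 treatment comparisons by limma, at an adjusted or an unadjusted p under 0.05.

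**Figure D1:**
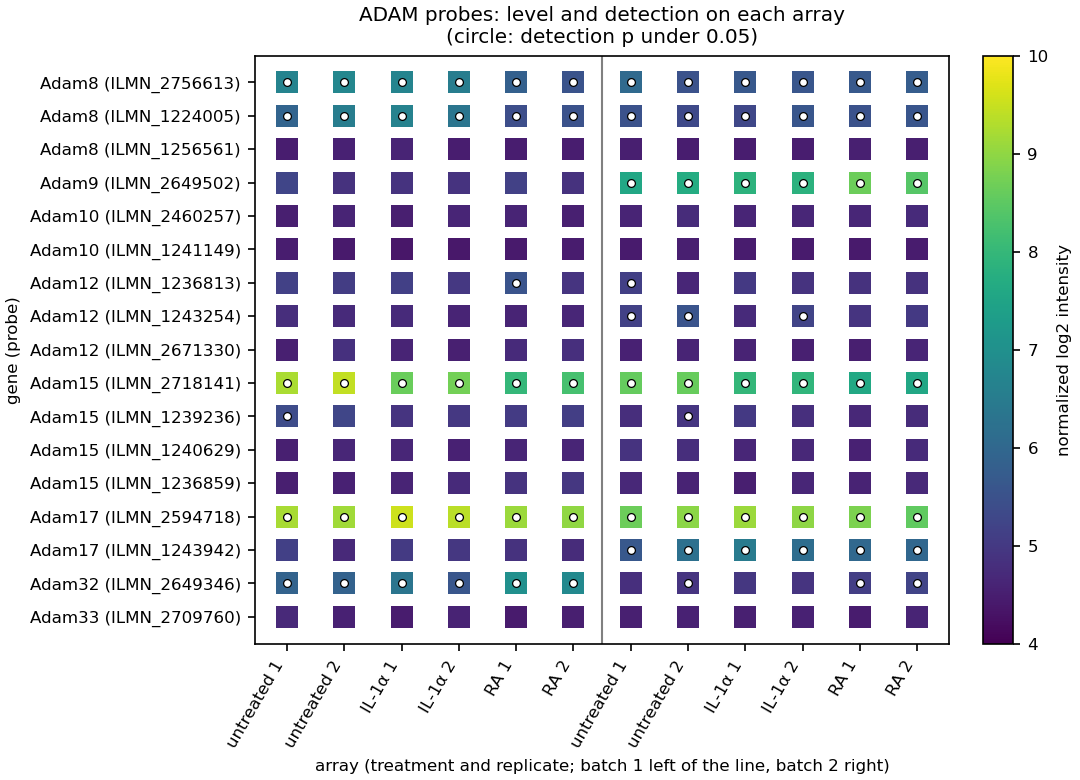
Each square is 1 of the 17 ADAM probes (rows) on 1 of the 12 arrays (columns, batch 1 left of the line and batch 2 right), coloured by normalized log2 intensity, with a circle where the probe was detected. Adam9 and the Adam17 probe ILMN_1243942 carry circles on all 6 arrays of batch 2 and on 0 of batch 1, while Adam10 and Adam33 carry 0.

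Counted by gene, 1 of the 5 tested members changed with IL-1α against untreated explants, 3 changed with RA against untreated and 3 differed between RA and IL-1α. The share of all 18200 tested probes called was 29.3% for IL-1α against untreated, 35.4% for RA against untreated and 31.1% for RA against IL-1α, split into 15.2% higher and 14.1% lower, 18.2% and 17.1%, and 15.2% and 15.8%, so with 5 genes the counts cannot be set apart from that background. The median log2 change of the members was 0.02 for IL-1α, −0.13 for RA against untreated and −0.38 for RA against IL-1α, beside 0.02, 0.02 and −0.03 over all probes. Pairs of these comparisons share a set of arrays, so each gene's values are given side by side below. Adam15 was lower with both treatments, Adam8 was lower and Adam32 higher with RA, and Adam17 was lower with RA than with IL-1α.

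Adam15 (ILMN_2718141) fell with both treatments and further with RA. Untreated explants read 9.25 and 9.45 on the batch 1 arrays, then 8.58 and 8.60 on the batch 2 arrays. IL-1α explants read 8.63 and 8.71, then 7.98 and 7.93. RA explants read 7.998 and 8.23, then 7.59 and 7.57. Within each batch the 3 treatments did not overlap and stood in the same order, untreated highest and RA lowest. The means were 8.97 ± 0.44, 8.31 ± 0.42 and 7.85 ± 0.32 (SD, n = 4) for untreated, IL-1α and RA. RA lowered Adam15 by 2.18-fold, a log2 change of −1.13 (SE 0.11, limma adjusted p = 3.80e-06), with −1.24 in batch 1 and −1.01 in batch 2. The RA and untreated arrays did not overlap across batches either, which held for 16.9% of all probes, and the two-sided exact permutation test gave p = 0.0286, the smallest that 4 arrays against 4 allow. IL-1α lowered Adam15 by 1.58-fold, a log2 change of −0.66 (SE 0.11, limma adjusted p = 6.69e-04), with −0.68 and −0.64 by batch. Across both batches those groups overlapped (two-sided exact permutation p = 0.171). RA against IL-1α gave −0.47 (SE 0.11, limma adjusted p = 0.00515), with −0.56 and −0.37 by batch. This last step had an adjusted p of 0.0535 when arrays were scaled to one median and 0.0958 in batch 2 alone. The falls with IL-1α and with RA were called without each array in turn and in each batch alone, and the size of neither was found to differ between batches (limma interaction adjusted p = 0.946 for IL-1α, where 4.82% of all probes were called, and 0.685 for RA).

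Chondrocyte markers fell in the same samples. For the marker counts here, the shares called over all tested probes were 29.3% with IL-1α and 35.4% with RA. All 9 measured markers fell with RA and 7 of the 9 with IL-1α, among them Acan, the aggrecan core protein, with log2 changes of −4.22 and −1.56 (limma adjusted p = 6.44e-10 and 1.02e-05). The log2 of the summed chondrocyte marker signal ran from 15.97 to 16.24 in untreated, 15.14 to 15.57 in IL-1α and 13.36 to 13.99 in RA arrays, and its part in the Adam15 result was not tested. In whole tissue, fewer cells of a type and less RNA per cell cannot be told apart. Of 5 endothelial markers, 3 fell with IL-1α and 1 rose with RA, so that list moved with Adam15 for 1 treatment and not for the other. The summed endothelial signal was 10.89 to 11.20, 9.85 to 10.25 and 11.04 to 11.27 on the log2 scale in untreated, IL-1α and RA arrays. The summed osteoblast marker signal also fell with both treatments, but in batch 1 not in the order of Adam15. There its log2 was 11.66 and 11.73 with RA against 11.48 and 11.46 with IL-1α. In batch 2 the values were 12.08 and 12.12 with RA against 12.42 and 12.42 with IL-1α. Of the 4 osteoblast marker probes that passed the filter, 3 fell with each treatment, among them Ibsp, the bone sialoprotein, by −2.45 with IL-1α and −3.06 with RA (limma adjusted p = 3.14e-06 and 1.58e-07), while the probe shared by Bglap1 and Bglap2 was not called. The summed osteoblast signal, in which that shared probe counts for both genes, was 13.27 to 13.52, 11.46 to 12.42 and 11.66 to 12.12 on the log2 scale in untreated, IL-1α and RA arrays, and Dmp1 was detected on 0 arrays. Of 3 muscle markers that passed the filter, 2 fell with IL-1α and 1 with RA, and their list summed to 7.90 to 8.76, 7.62 to 8.04 and 7.59 to 7.94. The part of the endothelial, osteoblast and muscle lists in the Adam15 result was not tested.

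The genes whose levels followed Adam15 most closely, out of 14316 compared over the 12 arrays after each batch was centred, were Gprasp2 (Pearson r = 0.989), Fxyd6 (r = 0.988) and Vit (r = 0.988). All these arrays share the treatments, and the correlations are given as a description.

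**Figure D2:**
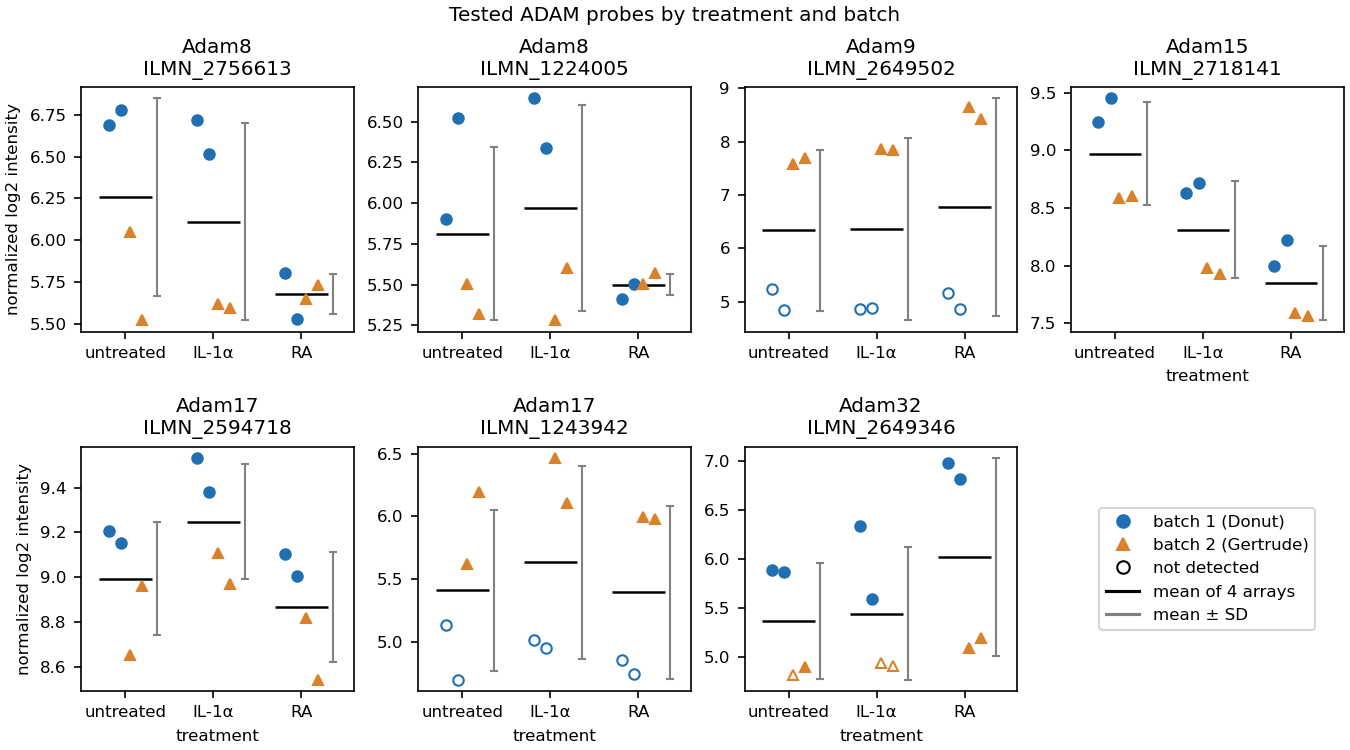
Normalized log2 intensity (vertical axes, which start at different values) of the 7 tested probes in untreated, IL-1α and RA explants, with circles for batch 1 and triangles for batch 2, open where the probe was not detected, a line at the mean of 4 arrays and a grey bar of ± 1 SD. Adam15 descends from untreated through IL-1α to RA in both batches, whereas the Adam8 probes are spread in untreated and IL-1α explants and fall within 5.41 to 5.81 in RA explants.

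Adam17 was lower with RA than with IL-1α, and neither treatment was called against untreated explants. Its bright probe (ILMN_2594718) read 9.21, 9.15, 8.65 and 8.96 in untreated explants, with batch 1 first. It read 9.53, 9.38, 9.11 and 8.97 with IL-1α and 9.10, 9.005, 8.82 and 8.54 with RA. Within each batch both IL-1α arrays were thus above both untreated arrays and above both RA arrays. RA against IL-1α gave −0.38 (SE 0.12, limma adjusted p = 0.0265; two-sided exact permutation p = 0.114). IL-1α against untreated was 0.25 (95% interval −0.003 to 0.51, limma adjusted p = 0.127) and RA against untreated −0.13 (−0.38 to 0.13, limma adjusted p = 0.443), neither past the threshold. The call between RA and IL-1α was lost with scaling to one median (−0.33, limma adjusted p = 0.156), in batch 2 alone (−0.36, limma adjusted p = 0.180), and on leaving out, in turn, either batch 1 IL-1α array, IL-1α batch 2 replicate 1, either batch 1 RA array or RA batch 2 replicate 2 (limma adjusted p from 0.0654 to 0.0905). The second Adam17 probe (ILMN_1243942) was detected in batch 2 only, where it read 5.62 and 6.19 untreated, 6.47 and 6.11 with IL-1α and 6.00 and 5.98 with RA. It was called in none of the 3 comparisons (limma adjusted p of 0.286, 0.943 and 0.258), and its RA against IL-1α change was −0.24 (SE 0.15). After each batch was centred the 2 probes had a Pearson r of 0.710 over the 12 arrays, as a description.

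Adam8 fell with RA on 1 of its 2 measured probes, and the fall lay in batch 1. Probe ILMN_2756613 read 6.69 and 6.78 in untreated and 6.72 and 6.52 in IL-1α explants of batch 1, against 5.81 and 5.53 with RA. In batch 2 it read 6.05 and 5.52 untreated, 5.62 and 5.60 with IL-1α and 5.65 and 5.74 with RA. RA was therefore below both other treatments in batch 1 and amid the untreated values in batch 2. Over both batches RA against untreated was −0.58 (SE 0.20, limma adjusted p = 0.0427; two-sided exact permutation p = 0.143). The difference was −1.06 in batch 1 (limma adjusted p = 0.00123 in that batch alone) and −0.09 in batch 2 (limma adjusted p = 0.754), and the interaction passed the test (0.97, SE 0.25, limma adjusted p = 0.0495), as it did for 2.86% of all probes. That interaction call was lost under each of the 7 other background, scaling, offset and filter choices run (0.66 to 0.97, limma adjusted p from 0.0513 to 0.209), and on leaving out any array but untreated batch 2 replicate 1 (limma adjusted p from 0.0739 to 0.242). The second probe, ILMN_1224005, gave −0.31 (SE 0.22, limma adjusted p = 0.301) over both batches, −0.75 in batch 1 and 0.13 in batch 2. RA against IL-1α was not called on either probe over both batches (−0.43 and −0.47, limma adjusted p = 0.134 and 0.131), but the batches differed on both probes, by 1.03 (limma adjusted p = 0.0186) and 1.13 (limma adjusted p = 0.0205), an interaction called for 8.76% of all probes and lost on both probes with no filter (limma adjusted p = 0.0614 and 0.0902). IL-1α against untreated was −0.15 (95% interval −0.59 to 0.30) and 0.15 (−0.32 to 0.63) on the 2 probes. The RA call was lost with scaling to one median, normalization within each batch, an offset of 50 or no filter (limma adjusted p from 0.0526 to 0.181), and on leaving out either batch 1 untreated array, untreated batch 2 replicate 1 or either batch 1 RA array, where the change ran from −0.57 to −0.38 (limma adjusted p from 0.0928 to 0.178).

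Neutrophil markers fell with RA as well. Beside the marker counts here, 29.3% of all tested probes were called with IL-1α and 35.4% with RA. With RA, 5 of 7 measured neutrophil markers fell, for example Mpo, the myeloperoxidase of neutrophil granules, by −2.10 on the log2 scale (limma adjusted p = 0.00339), and limma called 0 of 7 with IL-1α (2 had an unadjusted p under 0.05). The log2 of their summed signal was 13.75 and 13.98 in untreated, 14.06 and 14.11 in IL-1α and 12.46 and 12.47 in RA explants of batch 1. In batch 2 it was 13.50 and 13.25 untreated, 14.04 and 14.12 with IL-1α and 13.85 and 13.77 with RA. Only the marker Mmp8 fell outside the filter, detected on 1 array. Of the other marker lists, 2 of 5 macrophage markers rose and 2 fell with IL-1α and 3 rose with RA, and 3 of 5 osteoclast markers rose with each treatment. The summed macrophage signal was 12.48 to 12.73, 12.31 to 13.08 and 12.87 to 13.02 on the log2 scale in untreated, IL-1α and RA arrays, and the summed osteoclast signal 10.97 to 12.38, 11.97 to 12.48 and 11.69 to 12.91. The part of these cell types in the Adam8 result was not tested.

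Adam32 (ILMN_2649346), the member without the catalytic motif, rose with RA. In batch 1 it read 5.89 and 5.87 untreated, 6.34 and 5.60 with IL-1α and 6.98 and 6.81 with RA. In batch 2 it read 4.81 and 4.90 untreated, 4.94 and 4.91 with IL-1α and 5.10 and 5.199 with RA, and was detected on only 3 of the 6 arrays, both RA arrays and untreated replicate 2. RA arrays were the highest in both batches. RA against untreated gave 0.65 (SE 0.17, limma adjusted p = 0.00952), a 1.57-fold rise, with 1.02 in batch 1 and 0.29 in batch 2. Since the batches lie apart, the groups overlapped and the two-sided exact permutation p was 0.286. RA against IL-1α gave 0.58 (SE 0.17, limma adjusted p = 0.0207), with 0.93 and 0.23 by batch, and IL-1α against untreated 0.08 (95% interval −0.30 to 0.45). In batch 2 alone neither RA difference was called (limma adjusted p = 0.181 and 0.312), although the interaction did not pass the test either (limma adjusted p = 0.212 and 0.125). With no filter both calls were lost (limma adjusted p = 0.0560 and 0.0992). The RA against IL-1α call was also lost without IL-1α batch 1 replicate 2 or either batch 1 RA array (0.42 to 0.50, limma adjusted p from 0.0790 to 0.0944). The genes that followed Adam32 most closely over the 12 batch-centred arrays were 6720426B09Rik (Pearson r = 0.938), scl000219.1_2 (r = 0.931) and D630011N09Rik (r = 0.930), all known by the array's clone names only.

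Adam9 (ILMN_2649502) was measured in batch 2 only. There it read 7.58 and 7.70 untreated, 7.86 and 7.84 with IL-1α and 8.65 and 8.42 with RA, so that the RA arrays were above all others of that batch. In batch 1 it was undetected on all 6 arrays, at 4.85 to 5.24. Over both batches RA against untreated was 0.43 (SE 0.17, limma adjusted p = 0.0732) and RA against IL-1α 0.41 (SE 0.17, limma adjusted p = 0.0962), neither called. The call was gained without untreated batch 1 replicate 1 (0.58, limma adjusted p = 0.0281) and, for both differences, without RA batch 1 replicate 2 (0.57 and 0.55, limma adjusted p = 0.0309 and 0.0416), arrays on which the probe was not detected. In batch 2 alone RA was higher than untreated by 0.90 (limma adjusted p = 0.00265) and higher than IL-1α by 0.69 (limma adjusted p = 0.0110), on 2 arrays against 2. The interaction for RA against untreated was called (0.93, SE 0.23, limma adjusted p = 0.0465), but its batch 1 side, −0.03, is a difference between signals below detection. It was lost with scaling to one median or no filter (limma adjusted p = 0.0626 and 0.0923) and without 10 of the 12 arrays in turn (limma adjusted p from 0.0643 to 0.252).

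**Figure D3:**
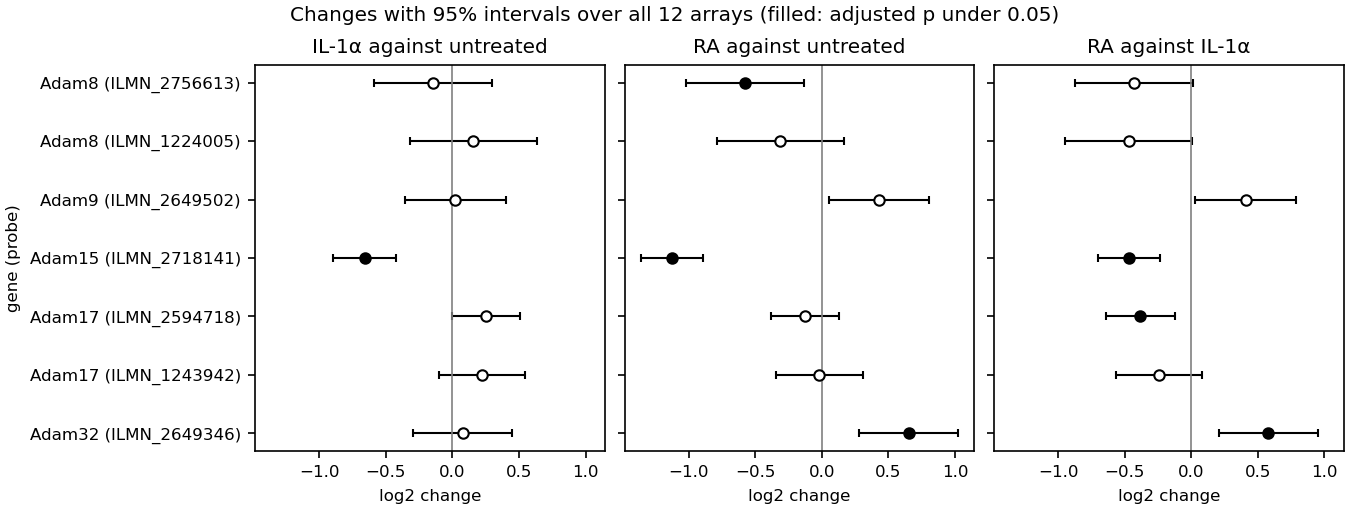
Log2 change (horizontal axis) of each tested probe with its 95% interval over all 12 arrays, in 3 comparisons, with filled points where the adjusted p was under 0.05. Adam15 lies below 0 in all 3 panels, from −0.47 to −1.13, and Adam32 lies above 0 in both comparisons with RA.

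**Figure D4:**
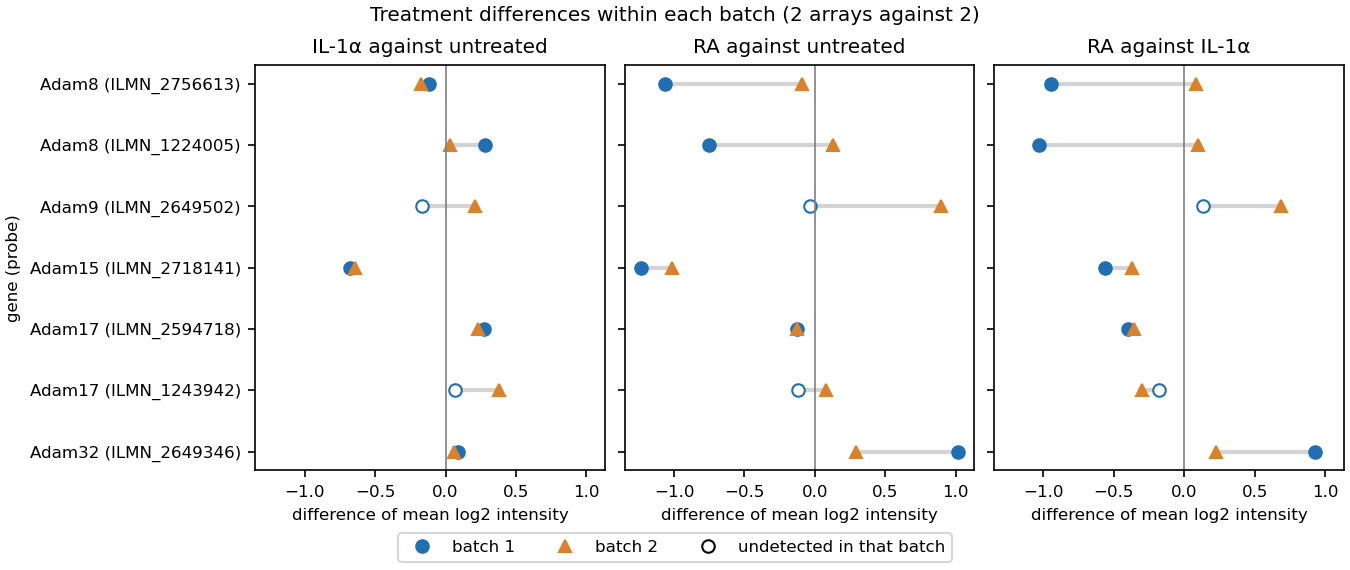
Difference of mean log2 intensity (horizontal axis) between treatments within batch 1 (circles) and batch 2 (triangles) for each tested probe, open where the probe was undetected on all arrays of that batch. The Adam17 probe ILMN_2594718 shows nearly the same differences in both batches, and Adam15 lies below 0 in both, with RA against IL-1α at −0.56 and −0.37, while for RA against untreated Adam8 shows −1.06 and −0.09 on its first probe and Adam32 shows 1.02 and 0.29.

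Between the batches Adam9 differed most among the members. Its mean was 8.01 in batch 2, detected on 6 of 6 arrays, against a measured 4.98 in batch 1, detected on 0 of 6. Set against the lowest detected signal, it was at least 6.24-fold higher in batch 2. The probe passed the filter through batch 2 alone, so no p-value is given for this difference. Detection on all arrays of batch 2 and none of batch 1 was seen for 7.07% of all tested probes, and 76.3% of them were called between batches, 33.4% higher and 42.9% lower in batch 2. Adam32 was lower in batch 2, by −1.27 (limma adjusted p = 6.90e-07), and its batches did not overlap, as for 39.3% of all probes. The direction for Adam9 and Adam32 was the same under each scaling. For Adam17 the 2 probes went opposite ways: ILMN_1243942 was at least 1.62-fold higher in batch 2, while ILMN_2594718 was lower by −0.39 (limma adjusted p = 0.00131), although it turned to 0.19 with scaling to one median and to 0.61 with normalization within each batch. Adam15 (−0.67, limma adjusted p = 5.19e-06) and the 2 Adam8 probes (−0.64 and −0.59, limma adjusted p = 0.00162 and 0.00460) were also lower in batch 2, and they too turned, to 0.005, 0.05 and 0.01 with scaling to one median and to 0.40, 0.34 and 0.29 within each batch. The median of all probes between batches itself moved, from −0.13 to 0.39 and 0.74 under these scalings, so a direction between batches is not settled for Adam8, Adam15 and ILMN_2594718.

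Genes that act on ADAM proteases were counted as a list of 20 on the array, of which 17 passed the filter. It holds the proprotein convertases that remove the ADAM prodomain, the iRhoms that carry ADAM17 to the surface, the tetraspanins that partner ADAM10, the inhibitors, and adaptors. With IL-1α, 3 rose and 4 fell against untreated, with RA 3 rose and 4 fell, and between RA and IL-1α 3 were higher and 5 lower. The shares called over all tested probes were 29.3%, 35.4% and 31.1%. Medians of the list were −0.05, 0.01 and −0.08, beside 0.02, 0.02 and −0.03 over all probes. Rhbdf2, which encodes iRhom2, rose with IL-1α from 6.65 to 7.74, by 1.09 (SE 0.15, limma adjusted p = 1.38e-04), and was lower with RA than with IL-1α by −1.42 (limma adjusted p = 7.09e-06). Timp3, the matrix-bound inhibitor that blocks ADAM17, fell with RA from 13.11 to 11.67, by −1.43 (SE 0.11, limma adjusted p = 3.71e-07). Sh3pxd2b, which encodes the adaptor Tks4, rose with RA from 8.20 to 9.997, by 1.80 (SE 0.12, limma adjusted p = 1.62e-07). Timp4 was detected on 4 arrays, all of batch 2 and none with RA, which was at least 1.36-fold lower than untreated. It counts among the 4 that fell with RA, but it passed the filter only through untreated and IL-1α arrays. No p-value is therefore given for it.

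Of the EGF receptor ligands and receptors, 5 of 12 passed the filter, and 1 of them, Hbegf, rose with each treatment. Over all tested probes, 15.2% were called higher with IL-1α and 18.2% with RA. Hbegf, a ligand that ADAM17 can release, went from 6.81 untreated to 7.25 with IL-1α and 7.98 with RA, changes of 0.45 (SE 0.12, limma adjusted p = 0.0142; 0.237 in batch 2 alone) and 1.18 (SE 0.12, limma adjusted p = 6.21e-06). The IL-1α call for Hbegf was lost without either batch 1 untreated array or IL-1α batch 1 replicate 2 (limma adjusted p from 0.0539 to 0.0611). The ligands Tgfa and Btc were detected on 0 arrays. Areg and Epgn were each detected on 2 arrays, in both cases IL-1α arrays of batch 2. Ereg was detected on 1 array, untreated and of batch 2. These ligands were not tested.

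Of the Notch pathway, 14 of 20 genes passed the filter. With IL-1α 3 rose and 2 fell, with RA 2 rose and 1 fell, and RA against IL-1α gave 3 higher and 2 lower. Beside these counts, 29.3%, 35.4% and 31.1% of all tested probes were called. Notch4 fell with IL-1α by −1.05 (SE 0.14, limma adjusted p = 1.34e-04). The target gene Hey1 fell with IL-1α by −1.02 (SE 0.13, limma adjusted p = 1.23e-04) and was higher with RA than with IL-1α by 1.39 (limma adjusted p = 4.09e-06). Hey1 is also among the 2 that rose with RA against untreated, from 6.54 to 6.91. That call held in only 4 of 12 fits that left out 1 array (0.25 to 0.46, limma adjusted p up to 0.179). Hes1, another target gene, rose with RA from 8.03 to 9.36, by 1.33 (SE 0.14, limma adjusted p = 8.29e-06). Notch2, Jag1 and Jag2 were detected on 0 arrays.

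Of other shed proteins, 19 of 22 passed the filter. With IL-1α 9 rose and 3 fell, with RA 9 rose and 3 fell, and RA against IL-1α gave 5 higher and 5 lower. Of all tested probes, 29.3%, 35.4% and 31.1% were called in these comparisons. The median log2 change of the list was 0.35 with IL-1α and 0.48 with RA, beside 0.02 over all probes in each. The RA median is the change of Il1r2, which was detected on 0 untreated, 2 IL-1α and 2 RA arrays, all of batch 2. Il1r2 is among the 19 genes counted, but it passed the filter only through treated arrays. The medians are therefore not read as a shift of the list. Icam1, an adhesion molecule, rose with IL-1α from 10.03 to 12.95, by 2.92 (SE 0.21, limma adjusted p = 7.03e-07), and Cx3cl1, a membrane-bound chemokine that ADAM10 and ADAM17 release, by 2.80 (SE 0.12, limma adjusted p = 1.05e-08). Vcam1, an adhesion molecule that ADAM17 releases, rose with RA from 8.18 to 11.40, by 3.22 (SE 0.21, limma adjusted p = 1.13e-07). Igfbp5, a binding protein of insulin-like growth factors, fell with IL-1α by −2.29 (SE 0.20, limma adjusted p = 3.15e-06). Tnf, the classical substrate of ADAM17, was detected on 2 arrays, both of them IL-1α arrays of batch 1, and was not tested. RNA levels do not measure the amount or the activity of any protease.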

How the data were processed

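RNA from 12 explant samples was measured on Illumina Sentrix mouse bead arrays. The authors deposited raw probe intensity values without background subtraction or normalization, and a detection score per probe and array, which rises with intensity, so that 1 minus the deposited score was used as the detection p. The bead summary software is not given in the sources used here. Intensities were processed with limma 3.58.1 in R 4.3.3 by neqc (background from detection p, quantile normalization, offset of 16, log2). Probes with detection p under 0.05 on at least 4 of 12 arrays were kept, which left 18200 of 46632 probes for 14317 symbols. The linear model had terms for treatment and for a 4-level factor of batch and biological replicate, as the study's methods describe. Further models had treatment by batch (the interaction) or treatment and batch. Adjusted p-values are Benjamini-Hochberg values over all kept probes, called under 0.05. The functions were tested on simulated data. Exact two-sided permutation tests exchanged 8 arrays in 70 ways. The number of arrays limits precision. For a probe undetected on all arrays of a group, a fold is a bound against the lowest detected signal, 4.86 to 5.48 on the log2 scale.

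A gene is given by its kept probe of highest mean, with its other probes beside it. All members were named, and of each pathway list at most 4 called genes with the largest change against untreated, beside check genes; 1 gene that this rule names is not reported here. Acan and Mpo, as examples of markers, and genes named for their detection or lack of it were chosen after their values were seen. For members changed over 1.5-fold and called, the 3 most correlated genes were named. The members and lists were chosen with earlier results of these data known. Alternatives were other background, scaling, offset, filter and blocking choices and leaving out each array. Fits in each batch alone were added after seeing the data. Promoter sequences are from RefSeq, and amino acid sequences were not used here.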

Additional observations from a re-analysis of the deposited data

Results flagged for a closer look

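The effect of RA on 2 members was called different between the batches, which are also the 2 mouse lines, by a test of the difference itself. That test called 2.86% of all probes for RA against untreated and 8.76% for RA against IL-1α. For Adam8 (ILMN_2756613) the log2 difference of RA against untreated in batch 2 exceeded that of batch 1 by 0.97 (limma interaction adjusted p = 0.0495), and the RA against IL-1α difference by 1.03 (limma adjusted p = 0.0186). The second Adam8 probe, ILMN_1224005, gave 1.13 for RA against IL-1α (limma adjusted p = 0.0205). For Adam9 the RA against untreated difference was higher in batch 2 by 0.93 (limma adjusted p = 0.0465), with the probe undetected in batch 1. Each of these calls was lost on leaving out some single arrays, and that of Adam8 for RA against untreated also under each of the 7 other background, scaling, offset and filter choices run. The Adam8 call for RA against untreated held in 1 of 12 such fits (0.71 to 1.21, limma adjusted p up to 0.242) and the Adam9 call in 2 of 12 (0.73 to 1.13, up to 0.252). The Adam8 calls for RA against IL-1α held in 7 of 12 (0.90 to 1.18, up to 0.0970) and 6 of 12 (0.95 to 1.30, up to 0.0947) for the 2 probes. No sample stood far from its group of 4 in any of the 24 groups examined. Each group held 2 arrays of each batch, so a gap between batches can hide an array that stands apart within its batch.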

How the results depend on the processing

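Adam15 fell with RA against untreated in every alternative run, and its fall with IL-1α missed the threshold only without a batch term (limma adjusted p = 0.217). The deviations of same-numbered arrays from their group had correlations from −0.11 to 0.39 over the pairs within a batch. With only 2 arrays in each group, this cannot settle whether the numbers pair the samples. Without the replicate block, with treatment and batch only, the number of members called was 1 for IL-1α against untreated, 3 for RA against untreated and 3 for RA against IL-1α, with the same genes in each. Without any block the numbers of probes called were 1327, 2215 and 1984 and of members 0, 1 and 0. Batch 2 alone gave 2973 probes for IL-1α against untreated and 1 member, Adam9, for RA against IL-1α. For RA against untreated 1 member was called with no filter. For RA against IL-1α 1 was called with scaling to one median and 0 when a change over 1.5-fold was also required.

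For the interaction, median scaling called 1687 probes for IL-1α against untreated, and detection on all 12 arrays left 399, 115 and 885 probes called for IL-1α against untreated, RA against untreated and RA against IL-1α. Against 2 members (Adam8 and Adam9), those called in the RA against untreated interaction were 1, Adam9, with no background correction, normalization within each batch, an offset of 50 or detection p under 0.01, and 0 with median scaling, no filter or detection on all 12 arrays. In the RA against IL-1α interaction they were 2, Adam8 and Adam9, with median scaling or an offset of 50 and 0 with no filter. Between batches, detection on all 12 arrays left 8540 probes and 3 members called, and median scaling 2 members. Leaving out 1 array at a time gave 3725 to 5467, 5149 to 6472 and 4594 to 5792 probes in the 3 treatment comparisons, with 1, 2 to 3 and 1 to 3 members. The interactions then gave 237 to 1684, 205 to 606 and 696 to 2121 probes, with 0, 0 to 1 and 0 to 1 members.

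Sign changes for members lay in changes that were not called or between batches. Adam9 with IL-1α was −0.021 with median scaling and −0.17 in batch 1 alone, and with RA −0.035 in batch 1 alone. Adam8 (ILMN_1224005) with RA was 0.13 in batch 2 alone, where RA against IL-1α was 0.083 and 0.096 on the 2 Adam8 probes. Adam17 (ILMN_1243942) with RA was 0.062 with median scaling, 0.014 with normalization within each batch and 0.082 in batch 2 alone. Between batches, median scaling and normalization within each batch turned Adam8 to 0.054 and 0.34 (ILMN_2756613) and 0.014 and 0.29 (ILMN_1224005), Adam15 to 0.0049 and 0.40 and Adam17 (ILMN_2594718) to 0.19 and 0.61. Leaving out 1 array turned the IL-1α changes of Adam8 (ILMN_1224005, −0.070 to 0.33), Adam9 (−0.13 to 0.17) and Adam32 (−0.059 to 0.24) and the RA change of Adam17 (ILMN_1243942, −0.18 to 0.085). Probes near background, such as Adam32 in batch 2, limit what can be read. The cause of these shifts was not tested.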
